A study of Mus musculus with 8 samples.

Results

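The 10 genes described here, of efferocytosis and of resolving macrophages, were followed in mouse lung after lipopolysaccharide (LPS), with and without YW3-56. They were *Mertk*, *Axl*, *Gas6*, *Mfge8*, *Trem2*, *Gpnmb*, *Spp1*, *Cd163*, *Stab1* and *Timd4*, taken by symbol from a list of efferocytosis and resolving macrophage genes and matched to their Ensembl identifiers. They are 10 of the 55416 gene identifiers in the count files, and all 10 had enough counts to be tested. Efferocytosis is the uptake of apoptotic cells by macrophages and other phagocytes. A dying cell exposes phosphatidylserine, which receptors such as TIMD4, STAB1 and the TREM2 complex can bind directly, or which the bridging proteins GAS6, protein S and MFGE8 link to the TAM receptors TYRO3, AXL and MERTK or to integrins. In the injured lung this clearance removes spent neutrophils before they break open, and macrophages that carry it out are associated with the resolution of inflammation.

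The study measured RNA in lung tissue by poly(A) or rRNA-depleted sequencing to learn what an inhibitor of protein arginine deiminases does in endotoxic shock induced by LPS. All mice were female C57BL/6 mice (C57BL/6J in the methods) aged 6 to 8 weeks, and lungs were taken at 24 h. The control group, mice 1, 2 and 4, received the solvent DMSO and then saline. The LPS group, mice 1, 6 and 7, received 35 mg/kg LPS, a bacterial cell wall component, injected into the peritoneal cavity. The dual-treatment group (LPS plus YW3-56), mice 2 and 5, received 10 mg/kg YW3-56 in DMSO shortly before the same dose of LPS. A mouse number names a different animal in each group. The methods name DMSO for the control and dual-treatment groups and do not name it for the LPS group, so YW3-56 and its solvent cannot be told apart in the comparison with LPS. Total counts were 19061949, 19796242 and 20527836 in the control mice, 20818501, 19379911 and 19279724 in the LPS mice and 19875939 and 20908608 in the dual-treated mice.

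LPS mice 6 and 7 stood apart from the other lungs. The 11 markers of squamous epithelium, led by *Krt13*, summed to 769 and 2106 CPM (counts scaled to library size and by the TMM method) in these mice and to between 37.3 and 83.4 in the other 6. Of these markers 7 were called higher and 1 lower in LPS than in control lungs, and *Krt16*, *Sprr3* and *Crct1*, named for this after their values were seen, had 0 counts in each control mouse. The 9 markers of skeletal muscle, led by *Acta1*, summed to 499 and 1283 CPM in the same mice and to between 5.63 and 19.8 in the others, and 8 of them were called higher. Without LPS mice 6 and 7, 0 squamous markers were higher and 4 lower, and 0 skeletal muscle markers were called. Neither tissue is part of lung parenchyma. Counts of called genes are therefore also given without LPS mice 6 and 7, from a fit in which LPS mouse 1 is alone and is assumed to vary like the other groups. In that fit 55.5% of all tested genes were called in LPS against control, 49.1% in dual treatment against LPS and 19% in dual treatment against control, so counts for any list differ partly because the background does.

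In control lungs *Gas6* was the most abundant member per length, at 87.9 ± 4.46 CPM per kb of merged exons (SD, n = 3), followed by *Spp1* at 79.5 ± 7.07 and *Mfge8* at 54.2 ± 0.953. *Gas6* and *Spp1* overlapped between mice and *Mfge8* lay below both. *Mertk*, *Stab1* and *Axl* had 15.8, 13.7 and 12.3 CPM per kb, and no neighbours in this order overlapped. *Gpnmb* had 5.93 CPM per kb. *Trem2* at 1.44, *Cd163* at 1.39 and *Timd4* at 0.702 CPM per kb were the scarcest, and each overlapped with the next. In LPS lungs *Gas6* (59.1 CPM per kb) was followed by *Mfge8* (35.03), *Spp1* (25.4) and *Axl* (22.8), of which *Spp1* and *Axl* overlapped, while *Mertk* ranked 7 at 4.78. *Stab1* (6.11), *Gpnmb* (5.78) and *Mertk* overlapped in turn, as did *Cd163* (0.768), *Trem2* (0.652) and *Timd4* (0.597). In dual-treated lungs *Gas6* (78.4), *Spp1* (65.3) and *Mfge8* (53.9) led, and *Spp1* and *Mfge8* overlapped. *Stab1* (16.5) and *Axl* (14.5) overlapped, *Mertk* followed at 11.4, then *Gpnmb* (8.19), *Cd163* (5.47) and *Trem2* (3.97), each overlapping with the next, and *Timd4* was last at 0.254. The order depends on the length used, since in control lungs, with the length of the canonical transcript alone, *Mfge8* ranked 2 and *Axl* ranked 4, above *Mertk* at 6. With that length *Axl* ranked 3 and *Mertk* 7 in LPS lungs, and 4 and 8 in dual-treated lungs. That length was added after the merged lengths were seen.

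Most of the 10 genes were lower after LPS and higher again with YW3-56. A gene was called when its adjusted p in edgeR's quasi-likelihood test was under 0.05 over all 18560 tested genes. In LPS against control lungs 7 members were lower (*Mertk*, *Gas6*, *Mfge8*, *Trem2*, *Spp1*, *Cd163* and *Stab1*) and 1, *Axl*, was higher. Among all tested genes 33.9% were called lower and 32.6% higher, 66.5% in all, so 8 called of 10 is not far from the background. Whether the members' skew to lower values differs from the background was not tested. The median log2FC of the 10 members was -0.74, beside -0.010 for all genes. Without LPS mice 6 and 7 the same counts of 7 lower and 1 higher were obtained. The mice of these groups did not overlap for the same 8 members, but that is the usual case, since 37.3% of all tested genes were lower and 34.7% higher in every LPS mouse than in every control mouse.

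In dual-treated against LPS lungs 7 members were higher and 1, *Axl*, was lower, where 31.7% of all genes were called higher and 27.4% lower, 59.1% in all. The median log2FC was 0.94, beside 0.060 for all genes. Without LPS mice 6 and 7 the counts were 6 higher and 1 lower, as *Gas6* missed the threshold (log2FC 0.36, edgeR adjusted p = 0.0528). The groups did not overlap for 9 members, 7 higher and 2 lower, beside 37.9% and 32.9% of all genes. This comparison shares the LPS mice with the preceding one, so a low or high LPS group moves both.

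In dual-treated against control lungs 3 members were called, *Trem2* and *Cd163* higher and *Mertk* lower. The background was 9.13% of genes higher and 7.02% lower, 16.1% in all. The groups did not overlap for 9 members, 5 higher and 4 lower, beside 26.1% and 26.2% of all genes. The count was 3 without LPS mice 6 and 7, and 1 when control mouse 2, control mouse 4 or dual-treated mouse 5 was left out. The share of all tested genes called was 9.7%, 8.43% and 9.28% without control mouse 1, 2 or 4, 6.24% without dual-treated mouse 2 and 16.4% without dual-treated mouse 5, so lower counts of members or of any list in these fits, except the last, come with a lower background. The p-values measure the spread between these mice. An exact permutation test of 3 mice against 3, or of 3 against 2, cannot go below 0.1, so no single gene could pass by that test.

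**Figure D1:**
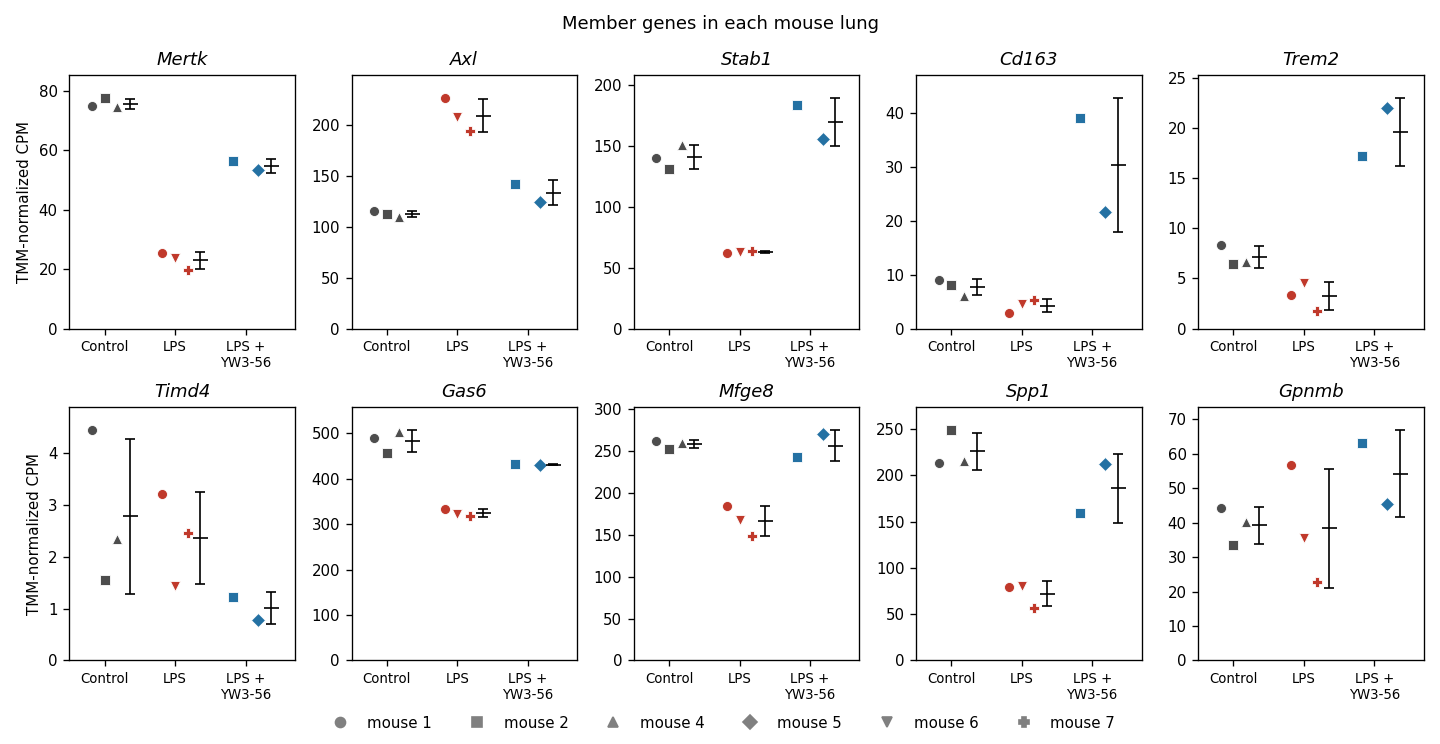
TMM-normalized CPM of the 10 genes (y axis, starting at 0) in each mouse of the 3 groups (x axis). Colored symbols are single mice, with 1 symbol for each mouse number, and black bars are mean ± SD over 3 control, 3 LPS and 2 dual-treated mice. *Mertk*, *Stab1*, *Gas6*, *Mfge8* and *Spp1* are lowest in all 3 LPS mice, *Axl* is highest there, and *Cd163* and *Trem2* are highest in both dual-treated mice.

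*Mertk* (ENSMUSG00000014361, chromosome 2 of GRCm39, 128540729 to 128645080, plus strand) encodes the TAM receptor tyrosine kinase that tissue macrophages use to engulf apoptotic cells. It had 75.0, 77.7 and 74.5 CPM in control mice 1, 2 and 4, 25.4, 23.7 and 19.8 in LPS mice 1, 6 and 7, and 56.6 and 53.3 in dual-treated mice 2 and 5. The 3 groups did not overlap, with dual-treated lungs between the others. The log2FC with LPS was -1.72 (SE 0.11, edgeR adjusted p = 1.59e-06), and from LPS to dual treatment it was 1.26 (SE 0.11, edgeR adjusted p = 2.37e-05). Dual-treated lungs were still below control, by a log2FC of -0.46 (SE 0.11, edgeR adjusted p = 0.0242). That call against control was lost when any control or dual-treated mouse was left out (edgeR adjusted p from 0.053 to 0.0859), while the log2FC stayed between -0.54 and -0.45.

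*Axl* (ENSMUSG00000002602, chromosome 7, 25456535 to 25488329, minus strand) encodes the TAM receptor that binds GAS6 most tightly and is known to be induced in inflamed tissue. Control mice had 116, 112 and 110 CPM (109.6 in mouse 4), LPS mice 226, 207 and 194, and dual-treated mice 142 and 124. It was the only member called higher after LPS, and each LPS mouse was above each other mouse. Its log2FC was 0.89 with LPS (SE 0.10, edgeR adjusted p = 3.73e-05) and -0.65 from LPS to dual treatment (SE 0.11, edgeR adjusted p = 0.000837). Both dual-treated mice were above all control mice, but the difference did not pass the test (log2FC 0.24, SE 0.11, edgeR adjusted p = 0.169).

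The ratio of these receptors differed more between groups than either alone. Per length of merged exons, *Axl* stood at 0.807, 0.757 and 0.771 of *Mertk* in the control mice, at 4.67, 4.58 and 5.12 in the LPS mice and at 1.31 and 1.22 in the dual-treated mice. With the length of the canonical transcript it averaged 1.49 in the control mice, 9.16 in the LPS mice and 2.42 in the dual-treated mice, so whether *Axl* or *Mertk* is the more abundant in control lungs depends on the length and the order of the groups does not. The ratio did not overlap between any of the groups, was chosen after the values were seen and was not tested. *Tyro3*, the remaining TAM receptor, had 15.0, 18.5 and 17.8 CPM in control, 18.3, 34.2 and 53.8 in LPS and 14.9 and 14.6 in dual-treated lungs. Its rise with LPS (log2FC 1.05, edgeR adjusted p = 0.0136) was carried by LPS mice 6 and 7. Without them its log2FC was 0.098 (edgeR adjusted p = 0.648), and from LPS to dual treatment it was -0.31 (edgeR adjusted p = 0.184) in place of -1.26 (edgeR adjusted p = 0.0131). The latter call was also lost without dual-treated mouse 2 or dual-treated mouse 5 (edgeR adjusted p = 0.0532 and 0.0632), with log2FC of -1.31 and -1.28.

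*Stab1* (ENSMUSG00000042286, chromosome 14, 30860970 to 30890598, minus strand) encodes stabilin-1, a scavenger receptor of macrophages and of some endothelium that binds phosphatidylserine. Its values were 140 (140.4), 131 and 151 CPM in control, 61.8, 63.2 and 63.7 in LPS and 184 and 156 in dual-treated lungs. The LPS mice lay close together and far below the rest, and both dual-treated mice were above all control mice. The log2FC with LPS was -1.16 (SE 0.10, edgeR adjusted p = 7.99e-06), and from LPS to dual treatment it was 1.43 (SE 0.11, edgeR adjusted p = 9.82e-06). Against control the dual treatment gave 0.27 (SE 0.11, edgeR adjusted p = 0.122), which did not pass.

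*Cd163* (ENSMUSG00000008845, chromosome 6, 124281606 to 124307560, plus strand) encodes the macrophage receptor for haemoglobin bound to haptoglobin. It had 9.0, 7.98 and 6.12 CPM in control, 2.91, 4.62 and 5.25 in LPS, and 39.1 and 21.5 in dual-treated lungs. The groups did not overlap, and the values of dual-treated mice 2 and 5 lay far apart. The log2FC was 2.83 from LPS to dual treatment (SE 0.31, edgeR adjusted p = 6.58e-05) and 1.98 from control to dual treatment (SE 0.30, edgeR adjusted p = 0.00253). With LPS alone it was -0.85 (SE 0.29, edgeR adjusted p = 0.0254), a call that was lost when control mouse 1, control mouse 2 or LPS mouse 1 was left out (edgeR adjusted p = 0.0826, 0.0592 and 0.0818), with log2FC of -0.73, -0.83 and -0.63. Without LPS mice 6 and 7 the log2FC with LPS was -1.40 (edgeR adjusted p = 0.0253).

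*Trem2* (ENSMUSG00000023992, chromosome 17, 48653429 to 48661175, plus strand) encodes a lipid-sensing receptor that signals through TYROBP. Control mice had 8.37, 6.43 and 6.62 CPM, LPS mice 3.32, 4.56 and 1.79, and dual-treated mice 17.2 and 22.0. LPS lungs were the lowest and dual-treated lungs the highest, with no overlap. Its log2FC was -1.15 with LPS (SE 0.30, edgeR adjusted p = 0.00722) and 2.61 from LPS to dual treatment (SE 0.32, edgeR adjusted p = 0.000124). Against control it was 1.46 with the dual treatment (SE 0.31, edgeR adjusted p = 0.0123), a call lost without control mouse 2, control mouse 4 or dual-treated mouse 5 (edgeR adjusted p = 0.0531, 0.0583 and 0.0586), with log2FC of 1.39, 1.38 and 1.24.

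*Timd4* (ENSMUSG00000055546, chromosome 11, 46701620 to 46735177, plus strand) encodes a phosphatidylserine receptor of long-lived resident macrophages. It was scarce, with 91, 33 and 51 counts in control, 54, 25 and 44 in LPS and 27 and 18 in dual-treated lungs, or 4.45, 1.55 and 2.34 CPM, 3.20, 1.44 and 2.46 CPM, and 1.23 and 0.790 CPM. The control and LPS mice overlapped widely and both dual-treated mice were below all of them. No comparison passed. The log2FC from LPS to dual treatment was -1.23 (SE 0.53, edgeR adjusted p = 0.0708, 95% interval from -2.42 to -0.039) and against control it was -1.46 (SE 0.53, edgeR adjusted p = 0.0913). Both passed with DESeq2 (DESeq2 adjusted p = 0.0396 and 0.0417) and without a filter on low counts (edgeR adjusted p = 0.0401 and 0.0322). The difference from LPS also passed without control mouse 1 or LPS mouse 6 (edgeR adjusted p = 0.0468 and 0.0414).

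Of the bridging proteins, *Gas6* (ENSMUSG00000031451, chromosome 8, 13515371 to 13544824, minus strand) encodes the ligand of all TAM receptors. It had 490 (490.3), 456 and 504 CPM in control, 334, 322 and 318 in LPS and 432 and 430 (430.2) in dual-treated lungs. The groups did not overlap, with dual-treated lungs between the others. The log2FC was -0.57 with LPS (SE 0.09, edgeR adjusted p = 0.000485) and 0.41 from LPS to dual treatment (SE 0.10, edgeR adjusted p = 0.00783). Against control the dual treatment gave -0.17 (SE 0.11, edgeR adjusted p = 0.326).

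*Mfge8* (ENSMUSG00000030605, chromosome 7, 78783515 to 78798825, minus strand) encodes the milk fat globule protein that joins phosphatidylserine to integrins. Control mice had 261, 253 and 260 (260.0) CPM, LPS mice 185, 167 and 149, and dual-treated mice 243 and 270 (269.9). All LPS mice were below all others, and dual-treated and control mice overlapped. Its log2FC was -0.63 with LPS (SE 0.11, edgeR adjusted p = 0.000578), 0.62 from LPS to dual treatment (SE 0.12, edgeR adjusted p = 0.00152) and -0.0085 from control to dual treatment (SE 0.12, 95% interval from -0.27 to 0.26). *Pros1*, which encodes the other TAM ligand protein S, was between 76.9 and 98.9 CPM in all 8 mice and was not called in any comparison, with log2FC of -0.10, -0.24 and -0.14 in LPS against control, dual treatment against control and dual treatment against LPS.

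*Spp1* (ENSMUSG00000029304, chromosome 5, 104582165 to 104589235, plus strand) encodes osteopontin, a secreted integrin ligand made by macrophages and epithelium. It had 213, 249 and 216 CPM in control, 79.3, 80.5 and 57.0 in LPS and 160 (159.7) and 212 in dual-treated lungs. The LPS mice were far below all others, and both dual-treated mice were below the lowest control mouse, mouse 5 only slightly. The log2FC was -1.64 with LPS (SE 0.16, edgeR adjusted p = 1.87e-05), 1.36 from LPS to dual treatment (SE 0.17, edgeR adjusted p = 0.000157) and -0.28 from control to dual treatment (SE 0.18, edgeR adjusted p = 0.32).

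*Gpnmb* (ENSMUSG00000029816, chromosome 6, 49013426 to 49047863, plus strand) encodes a glycoprotein of macrophages rich in lysosomes. It had 44.2, 33.5 and 40.1 CPM in control, 56.7, 35.5 and 22.7 in LPS and 63.3 and 45.3 in dual-treated lungs. The LPS mice spread over the whole range of the control mice and beyond, LPS mouse 1 being above and LPS mouse 7 below all of them. No comparison passed, with log2FC of -0.036 with LPS (SE 0.28, edgeR adjusted p = 0.916), 0.50 from LPS to dual treatment (SE 0.31, edgeR adjusted p = 0.19) and 0.47 from control to dual treatment (SE 0.31, edgeR adjusted p = 0.351). The value depended on which LPS mice were used. With LPS mouse 1 left out, the log2FC from LPS to dual treatment was 0.89 and passed (edgeR adjusted p = 0.0114), and without LPS mice 6 and 7 it was -0.071 (edgeR adjusted p = 0.812).

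Of the 10 members, 7 share exonic bases with another annotated gene, and *Axl*, *Cd163* and *Timd4* share none. The partner is on the other strand for *Mertk*, *Gas6*, *Mfge8*, *Trem2*, *Gpnmb* and *Stab1*, and on the same strand for *Spp1*. *Tmem255b* is the partner of *Gas6*, and *Nt5dc2* is 1 of those of *Stab1*. The strand setting of the counting is not given in the sources used here. Within the shared bases, reads from a member and from its partner therefore cannot be told apart. For *Spp1*, with its partner on the same strand, this holds with any strand setting. The length of the shared bases was not measured.

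**Figure D2:**
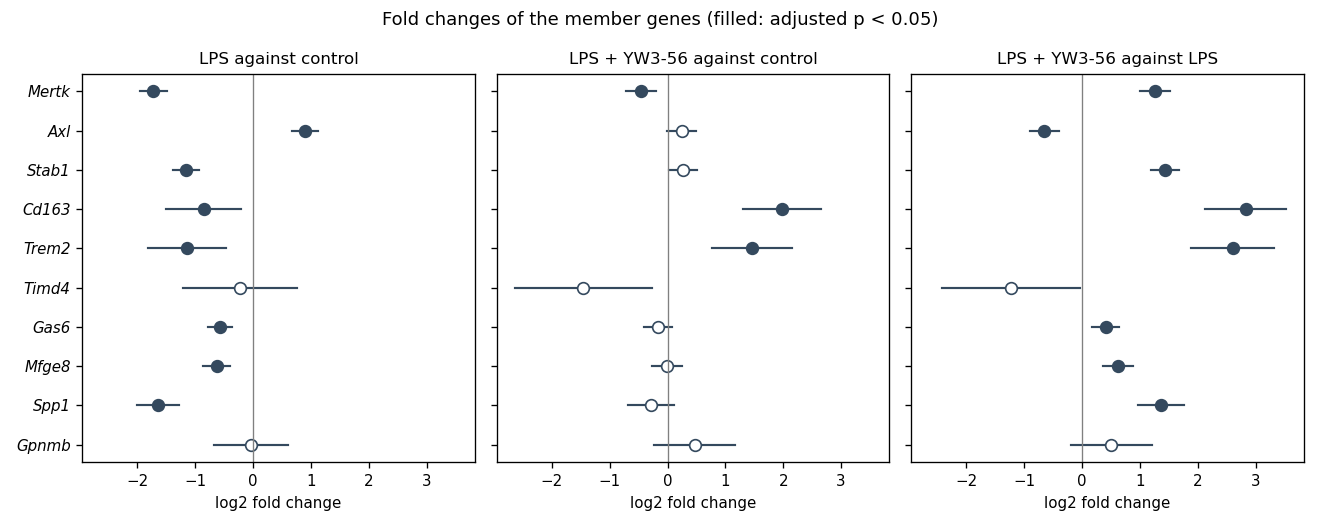
Log2FC of each member (x axis) in the 3 comparisons, with 95% intervals from edgeR's fit as lines. Filled circles have an adjusted p under 0.05. In LPS against control 7 filled circles lie left of 0 and 1 lies right of it, in dual treatment against LPS the split is 1 and 7, and in dual treatment against control 3 circles are filled.

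For the members, scaling moved the size of these differences more than their direction. With library size alone in place of TMM, the median log2FC of all genes was -0.29 in LPS against control and 0.38 in dual treatment against LPS. Of all called genes 35.6% were then higher with LPS, against 49.0% with TMM, and 71.0% were higher from LPS to dual treatment, against 53.6%. The 8 members called with TMM in each of these comparisons were called again in the same direction. Of all tested genes 65.6% and 59.9% were called with library size alone, so these counts are again not far from the background. *Gpnmb* also passed from LPS to dual treatment (log2FC 0.86, edgeR adjusted p = 0.022).

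Markers of several cell types moved with the members. In bulk tissue, fewer cells of a type and less RNA per cell cannot be told apart. The 6 macrophage markers summed to 6282, 5805 and 7710 CPM in control, 5946, 4937 and 3555 in LPS and 6466 and 8857 in dual-treated lungs, nearly all of it from *Lyz2*, which encodes lysozyme and is also expressed by alveolar type 2 cells. The other 5 (*Adgre1*, *Csf1r*, *Cd68*, *Fcgr1* and *Mpeg1*) summed to 295, 248 and 301 CPM, 450 (450.1), 461 and 335 CPM, and 598 and 727 CPM. Of the 6, 2 were called higher and 1 lower with LPS, 5 higher and 0 lower with dual treatment against control, and 5 higher and 0 lower with dual treatment against LPS. None was at 0 in any mouse. The sum of all 6 overlapped between control and LPS lungs, and the sum without *Lyz2* was higher in each LPS mouse than in any control mouse. Their part in the members' values was not tested.

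The 6 alveolar macrophage markers, led by *Car4*, summed to 325, 295 and 340 (340.3) CPM in control, 346, 314 and 223 in LPS and 242 and 381 in dual-treated lungs. With LPS 1 was higher and 3 lower, with dual treatment against LPS 3 were higher and 1 lower, and against control 0 were called by edgeR's test. The list's median log2FC with LPS was -0.92. Without *Car4*, which held much of the sum, the markers summed to 185, 138 and 179 CPM in control, 168, 145 and 121 in LPS and 129 and 175 in dual-treated lungs. *Siglecf*, *Ear1* and *Ear2*, named after their values were seen, fell by 1.81, 1.94 and 2.45 with LPS and rose by 1.28, 1.36 and 2.33 from LPS to dual treatment, while *Plet1* of the same list, also named after, took the opposite course (1.03 and -1.32) and the other 2 markers were not called. The 7 monocyte markers, led by *Fn1*, summed to 411, 326 and 455 CPM in control, 1366, 906 and 821 in LPS and 731 and 898 in dual-treated lungs, with 5 higher and 1 lower in LPS, 5 higher in dual treatment against control, and 3 higher and 2 lower in dual treatment against LPS. Without *Fn1* they summed to 118, 102 and 109 CPM, 1076, 732 and 606 CPM, and 418 and 516 CPM. The 7 neutrophil markers, led by *S100a9*, summed to 214, 118 and 125 CPM in control, 2125, 2948 and 1843 in LPS and 1715 and 2387 in dual-treated lungs. All 7 were higher with LPS and 6 with dual treatment against control, and 4 were higher and 1 lower with dual treatment against LPS. The lower gene was *Ly6g*, named after its values were seen, with a log2FC of -2.75 (edgeR adjusted p = 0.00732).

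The 6 endothelial markers, led by *Cdh5*, summed to 2517, 2749 and 2863 CPM in control, 1974, 1633 and 1567 in LPS and 2746 and 2748 in dual-treated lungs. Among them 4 were lower with LPS, 4 higher from LPS to dual treatment, and 1 higher and 1 lower with dual treatment against control. The 6 alveolar type 2 markers, led by *Sftpc*, ranged from 29411 to 37058 CPM in control, from 14118 to 25410.4 in LPS and from 17274 to 28301 in dual-treated lungs, with 5 lower with LPS, 2 higher from LPS to dual treatment and 0 called against control with dual treatment. The 5 alveolar type 1 markers, led by *Ager*, ranged from 4943 to 5183, from 1922 to 3404 and from 2414 to 3515 CPM, with 3 lower with LPS, 3 higher and 1 lower from LPS to dual treatment, and 2 lower with dual treatment against control. The sums of both lists overlapped between LPS and dual-treated lungs. Without *Ager* the alveolar type 1 sums did not overlap between any of the groups. They ranged from 2674 to 2847 CPM in control, from 626 to 972 in LPS and from 1435 to 2104 in dual-treated lungs. The part of both lists in the members' values was not tested. The 5 lymphatic endothelial markers, led by *Pdpn*, ranged from 231 to 255, from 263 to 350 (349.9) and from 168 to 179 CPM, with 2 higher and 1 lower with LPS, 2 lower from LPS to dual treatment and 1 lower with dual treatment against control. Without *Pdpn* the sum was lower in LPS than in control lungs, from 122 to 125 CPM in control, from 74.2 to 95.6 in LPS and from 68.0 to 81.8 in dual-treated lungs.

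The 6 fibroblast markers, led by *Pdgfra*, ranged from 888 to 970 (969.9) CPM in control, from 721 to 916 in LPS and from 737 to 999 in dual-treated lungs, with 2 higher and 2 lower with LPS and 2 higher and 1 lower from LPS to dual treatment. The 6 markers of smooth muscle and pericytes, led by *Pdgfrb*, ranged from 387 to 473, from 317 to 368 and from 344 to 351 CPM, with 1 higher and 3 lower with LPS and 3 higher and 3 lower from LPS to dual treatment. Without *Pdgfrb* they ranged from 258 to 309, from 226 to 271 and from 193 to 224 CPM. The 3 mesothelial markers, led by *Msln*, ranged from 366 to 449, from 285 to 375 and from 308 to 471 CPM, with 2 lower with LPS and 1 higher from LPS to dual treatment. Without *Msln* they ranged from 174 to 193, from 65.1 to 109 and from 101 to 189 CPM. The 5 adipocyte markers, led by *Cidec*, varied within every group, with 29.6, 163 and 31.6 CPM in control, 7.83, 30.1 and 82.6 in LPS and 90.4 and 17.9 in dual-treated lungs, and 1 was lower with LPS and 1 higher from LPS to dual treatment. With dual treatment against control, 1 fibroblast marker and 1 of smooth muscle and pericytes were lower. The part of these cell types in the members' values was not tested.

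Without LPS mice 6 and 7 the macrophage, monocyte, adipocyte and alveolar type 1 lists kept their counts with LPS. The others had 2 higher and 3 lower (alveolar macrophage), 6 and 0 (neutrophil), 1 and 4 (endothelium), 1 and 2 (lymphatic endothelium), 1 and 2 (fibroblast), 0 and 3 (smooth muscle and pericyte), 0 and 0 (mesothelium) and 0 and 2 (alveolar type 2). From LPS to dual treatment the macrophage list had 3 higher in place of 5, the alveolar macrophage list 2 higher and 1 lower, the monocyte list 2 and 2, the neutrophil list 1 and 0 in place of 4 and 1, and the endothelial list 3 and 1. There the alveolar lists of both types and the lymphatic list kept their counts, the fibroblast list had 1 and 1, the smooth muscle and pericyte list 3 and 1, and the mesothelial and adipocyte lists 0. With dual treatment against control the monocyte list had 6 higher in place of 5, and 1 more marker was lower in the lymphatic, smooth muscle and pericyte, mesothelial and both alveolar epithelial lists.

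The wider pathway was read from 8 lists of other genes. Among 17 other receptors for apoptotic cells, 7 were higher and 4 lower with LPS, 7 higher and 1 lower with dual treatment against control, and 8 higher and 4 lower with dual treatment against LPS. The medians were 0.51, 0.17 and 0.95 on the log2 scale, beside -0.010, 0.0042 and 0.060 for all genes, and the last was 0.53 with *Havcr1* and *Megf10*, which had at most 3 counts in every mouse of a group, set to their bounds. *Msr1*, a macrophage scavenger receptor, had 5.97, 3.94 and 6.71 CPM in control, 13.5, 16.1 and 7.93 in LPS and 128 and 57.0 in dual-treated lungs, a log2FC of 2.89 from LPS to dual treatment (SE 0.37, edgeR adjusted p = 0.000153). *Cd300lb*, an activating receptor for phosphatidylserine, followed with 2.45 (SE 0.43). With LPS, *Cd300lf* rose by 2.81 and *Adgrb1*, a brain-type receptor with few counts, by 2.72. The *Adgrb1* call was lost without control mouse 2 or LPS mouse 1 (edgeR adjusted p = 0.0597 and 0.0559), with log2FC of 2.45 and 2.24. The lipid scavenger *Cd36* fell by 2.00 with LPS. *Megf10* had 19, 24 and 20 counts in control and 1, 2 and 1 in LPS lungs, and *Havcr1* had 14, 17 and 9 counts in LPS and 1 and 2 in dual-treated lungs. With 1 mouse left out, the number called in dual treatment against control was 4 in place of 8 without control mouse 2 and 5 without dual-treated mouse 2. Such a count can include genes that were not called with all mice, and the share of all genes called was 8.43% and 6.24% in these fits, beside 16.1%.

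Among 13 other bridging molecules and opsonins, 6 were higher and 2 lower with LPS, 6 higher and 1 lower with dual treatment against control, and 4 higher and 4 lower with dual treatment against LPS, with medians of 0.50, 0.60 and -0.14. The complement component *C1qa*, which coats apoptotic cells, had 29.3, 20.3 and 27.1 CPM in control, 19.6, 18.7 and 17.4 in LPS and 122 and 109 in dual-treated lungs. Its log2FC from LPS to dual treatment was 2.64 (SE 0.15, edgeR adjusted p = 3.71e-06), that of *C1qc* was 2.58. With LPS the log2FC of *C1qb*, named after its values were seen, was 0.50 (edgeR adjusted p = 0.00842), and that of *C1qa* was -0.46. The *C1qa* call was lost without LPS mice 6 and 7, with a log2FC of -0.38. It was also lost without control mouse 1 or control mouse 4 (edgeR adjusted p = 0.059 and 0.0514), with log2FC of -0.36 and -0.42. The pentraxin *Ptx3* and the matricellular *Ccn1* took the opposite course, at 6.60 and 2.30 with LPS and -3.77 and -2.63 from LPS to dual treatment. Without LPS mice 6 and 7 the log2FC of *Ccn1* was 3.20 with LPS and -3.53 from LPS to dual treatment. *Edil3*, a relative of *Mfge8*, fell by 1.61 with LPS. With 1 mouse left out, the number called in dual treatment against control was 4 in place of 7 without control mouse 2, control mouse 4 or dual-treated mouse 2.

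The machinery of engulfment, 14 genes, was split evenly, with 5 higher and 5 lower with LPS, 1 and 1 with dual treatment against control, and 5 and 4 with dual treatment against LPS. Its medians were 0.0016, 0.0050 and 0.14. *Rubcn*, needed for LC3-associated phagocytosis, changed by -3.24 with LPS (SE 0.15, edgeR adjusted p = 4.7e-07) and by 3.00 from LPS to dual treatment (SE 0.15, edgeR adjusted p = 2.4e-06). The adaptor *Gulp1* changed by -3.57 and 2.79. The small GTPases *Rab5a* and *Rac1* rose by 1.18 and 0.90 with LPS, and *Rab5a* and the adaptor *Crkl* fell by 1.18 and 0.84 from LPS to dual treatment. The 2 genes called in dual treatment against control were *Gulp1* and *Rhog*, and 0 genes were called when any control mouse or dual-treated mouse 2 was left out and 1 without dual-treated mouse 5. In the fits without 1 of these 4 mice the log2FC of *Gulp1* ran from -0.82 to -0.63, beside -0.77 with all mice, and that of *Rhog*, named after its values were seen, from 0.55 to 0.61, beside 0.59, so the sizes stayed near and the threshold was missed.

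Of 14 find-me and don't-eat-me signals, 7 were higher and 6 lower with LPS, 4 and 1 with dual treatment against control, and 5 and 6 with dual treatment against LPS, with medians of 0.33, 0.30 and -0.34. The nucleotide receptors parted, as *P2ry2* changed by 2.75 with LPS and -2.11 from LPS to dual treatment, and *P2ry6* by 2.12 in the latter. *Sphk1*, the kinase that makes sphingosine 1-phosphate, changed by 2.65 and -2.62, and the scramblase *Xkr8* fell by 1.19 with LPS. The fractalkine receptor *Cx3cr1* had 6.21, 6.10 and 6.71 CPM in control, 1.25, 0.751 and 0.112 in LPS, but 1.77 and 20.3 in dual-treated mice 2 and 5. Its log2FC of 3.97 from LPS to dual treatment (edgeR adjusted p = 0.00453) rests on mouse 5, without which it was 1.32 (edgeR adjusted p = 0.149), and without LPS mice 6 and 7 it was 3.14 (edgeR adjusted p = 0.0825). Its log2FC with LPS was -3.18, and -2.34 without LPS mice 6 and 7 (edgeR adjusted p = 0.152). Against control, dual treatment had 1 gene called in place of 5 without control mouse 2, control mouse 4 or dual-treated mouse 2, and 3 without control mouse 1 or dual-treated mouse 5. Without dual-treated mouse 5 those 3 include *S1pr1* and *Cd24a*, named after their values were seen, which were not called with all mice, and only 1 of the original 5.

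Digestion of the cargo and efflux of its sterols were represented by 16 genes, of which 5 were higher and 8 lower with LPS, 4 and 3 with dual treatment against control, and 7 and 5 with dual treatment against LPS, with medians of -0.30, -0.080 and 0.27. *Nr1h3*, which encodes the sterol receptor LXRα, had 58.4, 68.9 and 74.6 CPM in control, 14.1, 14.9 and 10.3 in LPS and 97.8 and 126 in dual-treated lungs. Its log2FC was -2.36 with LPS (SE 0.17, edgeR adjusted p = 3.03e-06) and 3.09 from LPS to dual treatment (SE 0.18, edgeR adjusted p = 3.92e-06), the same order of groups as *Trem2* and *Cd163*. *Dnase2a*, the lysosomal nuclease that degrades DNA of engulfed cells, changed by -1.76 and 2.16. *Ppard* changed by 0.97 and -1.01, *Ucp2* rose by 0.88 with LPS, and *Mylip*, which marks the LDL receptor for degradation, fell by 1.19 from LPS to dual treatment. Against control, dual treatment had 1 gene called in place of 7 without control mouse 1 or control mouse 2, and fewer than with all mice without either dual-treated mouse. Without control mouse 1 or control mouse 2 the log2FC of *Nr1h3* was 0.64 and 0.75, beside 0.73 with all mice. That of *Dnase2a* was 0.42 and 0.37, beside 0.39, and that of *Mylip* -0.63 and -0.70, beside -0.69. The sizes of these genes stayed near and the threshold was missed.

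In the list of 18 genes of Trem2 signalling and lipid-handling macrophages, 10 were higher and 4 lower with LPS, 7 higher and 0 lower with dual treatment against control, and 7 higher and 4 lower with dual treatment against LPS, with medians of 0.51, 0.77 and 0.27. *Tyrobp*, the signalling partner of *Trem2*, was named after its values were seen. It had 49.4, 30.5 and 41.0 CPM in control, 80.2, 108 and 53.8 in LPS and 156 and 210 (209.6) in dual-treated lungs, so that it rose with LPS (log2FC 0.9995, edgeR adjusted p = 0.00649) where *Trem2* fell. The kinase *Syk* and the tetraspanin *Cd63* rose by 1.90 and 1.59 with LPS, and *Cd63* and *Cd9* fell by 1.38 and 0.60 from LPS to dual treatment. *Tfec*, a transcription factor of macrophages, changed by -1.82 and 2.90, *Atp6v0d2* fell by 1.26 with LPS, and *Lgals1* rose by 1.66 from LPS to dual treatment. Without dual-treated mouse 5 the calls in dual treatment against control were 11 in place of 7.

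Of 20 genes of resolution and alternative activation, 8 were higher and 5 lower with LPS, 9 higher and 0 lower with dual treatment against control, and 10 higher and 3 lower with dual treatment against LPS, with medians of 0.16, 0.77 and 0.81. *Cd200r1*, an inhibitory receptor of myeloid cells, had 64, 75 and 103 counts in control, 5, 2 and 7 in LPS and 117 and 70 in dual-treated lungs, with a log2FC of 3.93 from LPS to dual treatment (SE 0.45, edgeR adjusted p = 8.82e-05). *Vsig4*, a complement receptor of resident macrophages, had few counts, 31, 11 and 6 in control, 0, 3 and 5 in LPS and 35 and 30 in dual-treated lungs. Its log2FC from LPS to dual treatment was 3.20 (SE 0.89), and 7.93 without LPS mice 6 and 7, where the LPS group is mouse 1 with 0 counts, so its size is not well determined. Not every gene of this list followed, since *Retnla* had 40.7, 58.1 and 44.4 CPM in control, 614, 563 and 440 (439.8) in LPS and 44.5 and 26.2 in dual-treated lungs. *Lyve1* rose by 2.71 with LPS and fell by 2.23 from LPS to dual treatment. *Il10* rose by 3.52 with LPS, and *Cmklr1*, the receptor of chemerin, fell by 2.50. Without dual-treated mouse 2 the calls in dual treatment against control were 5 in place of 9.

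The last list held 9 genes of receptor shedding and of the feedback that TAM receptors exert on cytokine signalling. Of these 5 were higher and 1 lower with LPS, 1 higher and 0 lower with dual treatment against control, and 1 higher and 6 lower with dual treatment against LPS, with medians of 0.76, 0.094 and -0.67. *Socs1*, an inhibitor of cytokine signalling, had 4.75, 5.54 and 5.52 CPM in control, 150 (150.2), 81.5 and 94.6 in LPS and 5.99 and 4.92 in dual-treated lungs. *Socs1* and *Socs3* rose by 4.37 and 3.13 with LPS and fell by 4.32 and 2.21 from LPS to dual treatment, opposite to *Mertk* and parallel to *Axl*. The sheddase *Adam10* changed by -0.60 and 0.61, *Timp3*, an inhibitor of such sheddases, rose by 0.76 with LPS, and *Rhbdf1* fell by 0.38 from LPS to dual treatment. *Rhbdf2* and *Adam17* of the same list were named after their values were seen. *Rhbdf2* changed more, by 1.76 with LPS and -1.46 from LPS to dual treatment, and *Adam17* was not called in any comparison. The *Rhbdf1* call was lost without LPS mice 6 and 7 or without dual-treated mouse 5, with log2FC of -0.28 and -0.38. Against control, dual treatment had 2 genes called in place of 1 without LPS mouse 7 and without LPS mice 6 and 7.

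**Figure D3:**
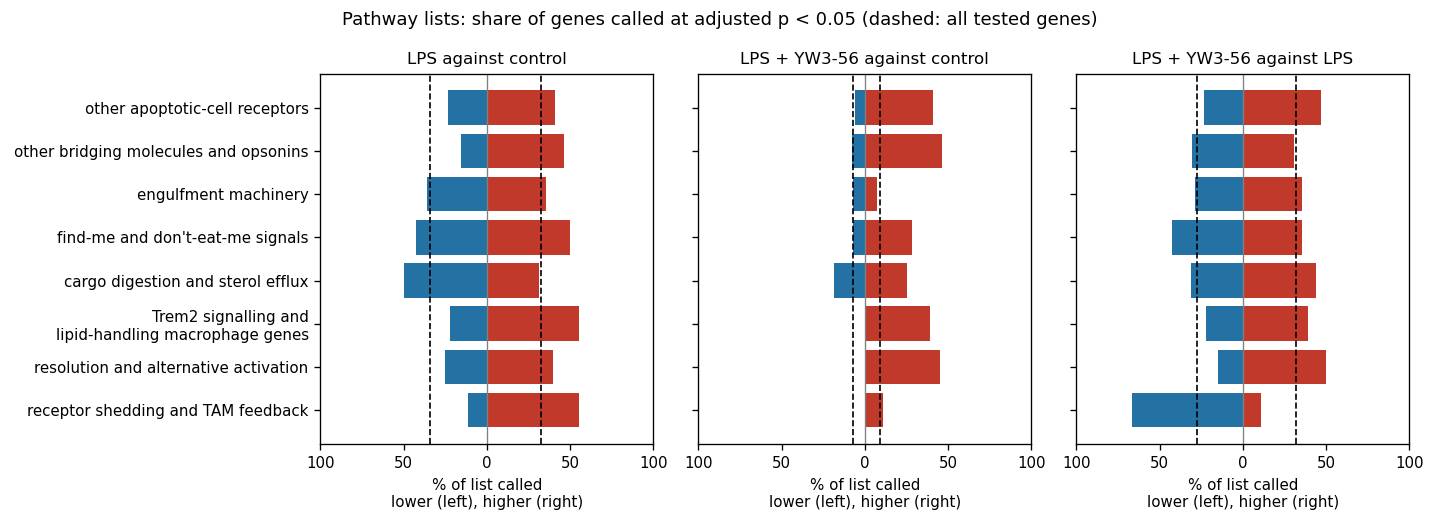
Share of the genes of each pathway list (x axis, percent of tested genes) called lower, in blue to the left, or higher, in red to the right, at an adjusted p under 0.05 in edgeR's test. Dashed lines give the share of all 18560 tested genes.

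Without LPS mice 6 and 7 the number called in LPS against control was 11, 9, 10, 10, 10, 10, 12 and 6 in the 8 lists in the order given, against 11, 8, 10, 13, 13, 14, 13 and 6 with them. In dual treatment against LPS it was 11, 8, 8, 9, 9, 10, 12 and 6, against 12, 8, 9, 11, 12, 11, 13 and 7. In dual treatment against control it was 8, 8, 2, 5, 8, 8, 9 and 2, against 8, 7, 2, 5, 7, 7, 9 and 1. In the same fits the share of all tested genes called went from 66.5% to 55.5%, from 59.1% to 49.1% and from 16.1% to 19%.

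The genes whose log2 CPM over the 8 libraries most resembled a member's were named by Pearson's r, ranked among 12162 genes. The libraries lie in 3 groups, so r follows the differences between groups. They were *Tcaf1*, *Syn2* and *Castor2* for *Mertk* (the lowest r 0.996, n = 8 libraries), *Bcl10*, *Ogfr* and *Eif3b* for *Axl* (0.998), *Men1*, *Evi5l* and *Tal1* for *Gas6* (0.993), and *Cnn2*, *Mmgt2* and *Upk1b* for *Mfge8* (0.993). *Cuedc2*, *Cd48* and *Sirpa* were most like *Trem2* (0.988), *Brd7*, *A530020G20Rik* and *Gimap8* most like *Stab1* (0.994), and *E2f6*, *Rpp14* and *Nkiras1* most like *Spp1* (0.996). The values were lower for *Cd163*, with *Tor2a*, *Rtel1* and *Spcs3* (0.974), and for *Gpnmb*, with *Rabepk*, *Gm7666* and *Tram2* (0.944).

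The sequence around the start of each gene, mostly before it, was searched for letters known from macrophage transcription factors. RefSeq promoter windows of 300 bases on GRCm38.p6, a different build from that of the gene positions above, were found for all 10 members, with 11 windows because *Spp1* has 2. On either strand, CACGTG, bound by MITF and TFEB, was in 7.15% of all 32851 windows, its extended form TCACGTGA, which contains it, in 0.974%, the AP-1 element TGACTCA in 5.20%, the MAF element TGCTGAC in 4.67% and the PU.1 core GAGGAAGT in 3.20%. Neither CACGTG nor TCACGTGA was in a member's window. Each of the other motifs was in 1 of the 11 windows, and these 3 matches are shown with the motif in capitals, because they were the only ones in any member. A match is a description of letters and not a site. *Spp1* held GAGGAAGT 113 bases before the start of the upstream window's transcript (chr5:104434958-104435045, plus strand). *Timd4* held TGCTGAC on the reverse strand 45 bases before its start (chr11:46810714-46810798, plus strand shown), and *Gpnmb* held TGACTCA just after its start (chr6:49036515-49036544, plus strand).
Spp1: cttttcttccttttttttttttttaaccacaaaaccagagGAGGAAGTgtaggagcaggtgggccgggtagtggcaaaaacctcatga
Timd4: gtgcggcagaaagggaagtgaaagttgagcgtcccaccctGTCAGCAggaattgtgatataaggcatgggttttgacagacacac
Gpnmb: ccaggggcaagTGACTCAtgagcacgagtt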

How the data were processed

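Lung RNA of 8 mice was analysed. After quality checks and trimming, the authors used HISAT2 2.2.1 for alignment to GRCm39 and featureCounts 2.0.1 for counting per gene, and the values deposited are raw counts. The annotation release and strand setting are not given in the sources used here. Of 55416 gene identifiers 54749 matched GENCODE annotation of GRCm39, and the others held 0.0533% of counts. Tests used edgeR 4.0.16 under R 4.3.3 (TMM, filterByExpr by group, glmQLFit and glmQLFTest, 1 fit of all 8 libraries, 5 residual degrees of freedom), with Benjamini-Hochberg adjustment over 18560 genes. SE is the size of log2FC over the root of F. CPM values are TMM-normalized. The procedure was tested on simulated counts. Alternatives were DESeq2 1.42.0, other scalings, filters, criteria and samples.

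The members and lists were chosen with earlier results of these data known. The rule for named genes took all 10 members, the 2 highest and 2 lowest log2FC among called genes of each pathway list in LPS against control and in dual treatment against LPS, the most abundant gene of each marker list, *Tyro3*, *Pros1*, and, for members with a mean of at least 5 CPM, the 3 genes with the highest Pearson's r of log2 CPM (prior count 2) among genes of at least 5 CPM. The pathway lists were other apoptotic-cell receptors, other bridging molecules and opsonins, engulfment machinery, find-me and don't-eat-me signals, cargo digestion and sterol efflux, Trem2 signalling and lipid-handling macrophage genes, resolution and alternative activation, and receptor shedding and TAM feedback. Other genes were named after their values were seen, except where all of a marker list is named. Protein sequences were not analysed here.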

Additional observations from a re-analysis of the deposited data

Results flagged for a closer look

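For *Trem2*, *Cd163* and *Stab1* the difference from control had opposite signs in LPS and in dual-treated lungs, and the difference between the treated groups passed edgeR's test. The log2FC from LPS to dual treatment was 2.61 for *Trem2* (edgeR adjusted p = 0.000124), 2.83 for *Cd163* (edgeR adjusted p = 6.58e-05) and 1.43 for *Stab1* (edgeR adjusted p = 9.82e-06). Against control *Trem2* had -1.15 with LPS and 1.46 with dual treatment, *Cd163* -0.85 and 1.98, and *Stab1* -1.16 and 0.27, of which the last did not pass. Both comparisons with control use the same control mice. No group had enough mice for a check for single mice far from the rest.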

How the results depend on the processing

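No paired analysis was possible because each mouse belonged to 1 group only, and a shared mouse number does not name the same animal. Of 510 values of member log2FC under the alternatives, 459 kept their direction and their side of the threshold, 28 no longer passed, 11 newly passed and 12 changed sign, none of which was a called value. Members called in LPS against control numbered 4 in place of 8 with a fold over 2 and an unadjusted p, and 4 with an adjusted p and a fold over 2. In these settings 40.1% and 39.2% of all genes were called in place of 66.5%. With 1 control or LPS mouse left out the members called numbered from 7 to 8, where from 59.7% to 65.1% of all genes were called. In dual treatment against LPS the members called were 10 in place of 8 without a filter on low counts (34.9% of all genes in place of 59.1%, over more genes) and 5 with an adjusted p and a fold over 2 (33.8%). With 1 control or LPS mouse left out they were from 8 to 9, where from 55.6% to 58.2% of all genes were called. In dual treatment against control they ran from 1 to 3, in place of 3, with 1 mouse left out, being 1 without control mouse 2, control mouse 4 or dual-treated mouse 5 (8.43%, 9.28% and 16.4% of all genes in place of 16.1%). The sign changes were those of *Gpnmb* with LPS (3.99e-06 with DESeq2, 0.056 without control mouse 1, 0.022 without LPS mouse 6, 0.24 without LPS mouse 7 and 0.54 without LPS mice 6 and 7, in place of -0.036, and -0.42 without LPS mouse 1) and from LPS to dual treatment (-0.071 without LPS mice 6 and 7, in place of 0.50), of *Timd4* with LPS (0.28 without control mouse 1, 0.033 without LPS mouse 6 and 0.21 without LPS mice 6 and 7, in place of -0.23, and -0.52 without control mouse 2) and of *Mfge8* from control to dual treatment (0.031 with library size only, 0.0050 with the 2 groups compared alone and 0.034 without dual-treated mouse 2, in place of -0.0085, and -0.11 without dual-treated mouse 5), and the cause was not tested. Of 408 counts of called pathway genes, 57 moved by more than 1.5 times. The length of the canonical transcript, added after seeing the data, changed the order of levels per kb and the ratio of *Axl* to *Mertk*.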
